A study of Mus musculus with 12 samples.

Results

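The genes examined here are 8 genes of MHC class II antigen presentation, taken by symbol from the 54532 genes of the count table: H2-Aa, H2-Ab1 and H2-Eb1, Cd74, H2-DMa, H2-DMb1 and H2-DMb2, and Ciita. They were measured by RNA-seq in 12 libraries of mouse bone marrow macrophages. The set was chosen on the effect of the fibronectin coating in these same libraries, so the coating values of its members, and the difference between their coating values in the 2 antibodies, are given as a description and were not tested. The macrophages came from wild-type C57BL/6J mice of 2 to 3 months and were grown in CSF-1, the growth factor of the macrophage lineage. They were kept on uncoated dishes or on dishes coated with fibronectin, an extracellular matrix protein, at 10 µg/ml. For 24 h they received 10 µg/ml of a neutralizing antibody against the integrin subunit ITGA5, which with ITGB1 forms a fibronectin receptor, or 10 µg/ml of isotype-matched IgG. The 4 groups, of 3 libraries each, are called IgG uncoated, anti-ITGA5 uncoated, IgG fibronectin and anti-ITGA5 fibronectin. No group carried a genetic change, and all were exposed to an antibody. The study describes such replicates as biologically independent experiments, but nothing in the labels ties them to separate mice or cultures. If they are not separate, the p-values measure only the spread between these libraries, which may be technical.

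MHC class II molecules are pairs of an alpha and a beta chain that show peptides from endocytosed proteins to CD4+ T cells. The chains assemble on the invariant chain in the endoplasmic reticulum, lysosomal proteases cut the invariant chain down to a short fragment, and the H2-DM heterodimer exchanges that fragment for a peptide. Transcription of these genes depends on CIITA, a coactivator that binds no DNA itself and is recruited by RFX, CREB and NF-Y at the X and Y boxes of their promoters. Macrophages at rest hold little class II, and interferon gamma is the classical inducer of Ciita in them.

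In the files' build, GRCm38.p6, 6 of the 8 genes lie within 181018 bases of chromosome 17: H2-DMa at chr17:34135182-34139101, H2-DMb2 at chr17:34143307-34151553, H2-DMb1 at chr17:34153072-34160230, H2-Ab1 at chr17:34263209-34269418 and H2-Eb1 at chr17:34305877-34316199 on the plus strand, and H2-Aa at chr17:34282744-34287827 on the minus strand. Ciita is on the plus strand at chr16:10480059-10528418, where its exons overlap Dexi on the opposite strand. The values below are counts over all exons of each gene. Because the strand used in counting is not given in the sources used here, reads of Ciita and Dexi may not have been separated. H2-DMb1 and H2-DMb2 are near copies: 369 stretches of 50 bases occur in the transcripts of both, 22.65% of those of H2-DMb1 and 21.19% of those of H2-DMb2, so reads may have been split between them and the values of H2-DMb2, the less abundant of the 2, are uncertain.

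RefSeq promoter windows, from 250 bases before to 50 bases after the gene start on GRCm38.p6, were at hand for 5 of the 8 genes. The 150 bases before the RefSeq start are shown for the alpha and beta chain genes H2-Aa and H2-Eb1. Their transcripts were among those that were higher on fibronectin. The same stretch is shown for H2-DMb2, whose libraries overlapped between the coatings in both antibodies. The mean FPKM of H2-DMb2 on fibronectin was 0.89 times that on uncoated dishes in IgG and 1.44 times in anti-ITGA5, at few counts. How these sequences relate to the coating values was not tested. Capitals mark GCAAC, letters of the X box core, and ATTGG, the reverse complement of the CCAAT letters bound by NF-Y.
H2-Aa, chr17:34287824-34287973, minus strand: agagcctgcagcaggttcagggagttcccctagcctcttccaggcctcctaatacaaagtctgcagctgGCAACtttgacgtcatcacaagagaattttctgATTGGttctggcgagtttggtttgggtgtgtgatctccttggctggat
H2-Eb1, chr17:34305717-34305866, plus strand: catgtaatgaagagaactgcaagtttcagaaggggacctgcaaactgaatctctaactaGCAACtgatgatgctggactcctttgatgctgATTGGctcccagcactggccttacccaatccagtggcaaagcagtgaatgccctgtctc
H2-DMb2, chr17:34145099-34145248, plus strand: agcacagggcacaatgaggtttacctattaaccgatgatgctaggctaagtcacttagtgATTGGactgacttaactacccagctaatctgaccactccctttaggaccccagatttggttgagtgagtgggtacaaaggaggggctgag

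Both strands of each window were searched. GCAAC followed by ATTGG with a gap of 20 to 35 bases occurred in 0.794% of 32851 RefSeq windows of the same length. H2-Aa held the pair with a gap of 28 bases, GCAAC starting at -81 and ATTGG at -48, and H2-Eb1 held it with a gap of 27 bases, at -91 and -59. The pair was not found as these letters in the windows of H2-DMa, H2-DMb1 or H2-DMb2. Both RefSeq windows of H2-DMa, chr17:34122582-34122881 and chr17:34125268-34125567, lie well before the gene start given above, and that of H2-DMb2 lies inside its gene span, so these windows do not cover every start of those genes. ATTGG alone stood at -90 in H2-DMb2 and at -61 in H2-DMb1. Each motif alone was common, GCAAC in 35.2% of the windows and CCAAT, read on either strand, in 37.4%. These matches are descriptions of the sequence, not measured binding sites.

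Depth ranged from 12954342 to 22075432 counts on genes per library. The macrophage markers Csf1r, the CSF-1 receptor, and Adgre1, which encodes F4/80, stood at 322 ± 11.7 and 169 ± 3.22 FPKM (fragments scaled to gene length and to the total of the library, mean ± SD, n = 3) in IgG uncoated. Replicates of anti-ITGA5 uncoated differed more from each other than those of the other groups: their counts gave a chi-square of 11.4 to 25.6 per gene between pairs, against 2.79 to 8.13 in the other 3 groups, where counting error alone gives about 1. Where leaving out 1 library ended a call of a gene named below, that library is given.

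By level per length in IgG uncoated, H2-DMb1 was highest, at 20.5 ± 0.231 FPKM (SD, n = 3). It was followed by H2-DMa at 7.57 ± 0.242, Cd74 at 6.10 ± 1.19, H2-Ab1 at 2.34 ± 0.309, H2-Eb1 at 1.86 ± 0.437, H2-Aa at 0.925 ± 0.0193, H2-DMb2 at 0.624 ± 0.0457 and Ciita at 0.0399 ± 0.0121 FPKM. The libraries of neighbours in this order did not overlap, except those of H2-Ab1 and H2-Eb1. The peptide exchange genes H2-DMb1 and H2-DMa thus stood above the genes of the presenting chains in these cells. On fibronectin the order changed in both antibodies: Cd74 passed H2-DMa, with libraries that did not overlap, and the mean of H2-Eb1 passed that of H2-Ab1, with libraries that did.

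**Figure D1:**
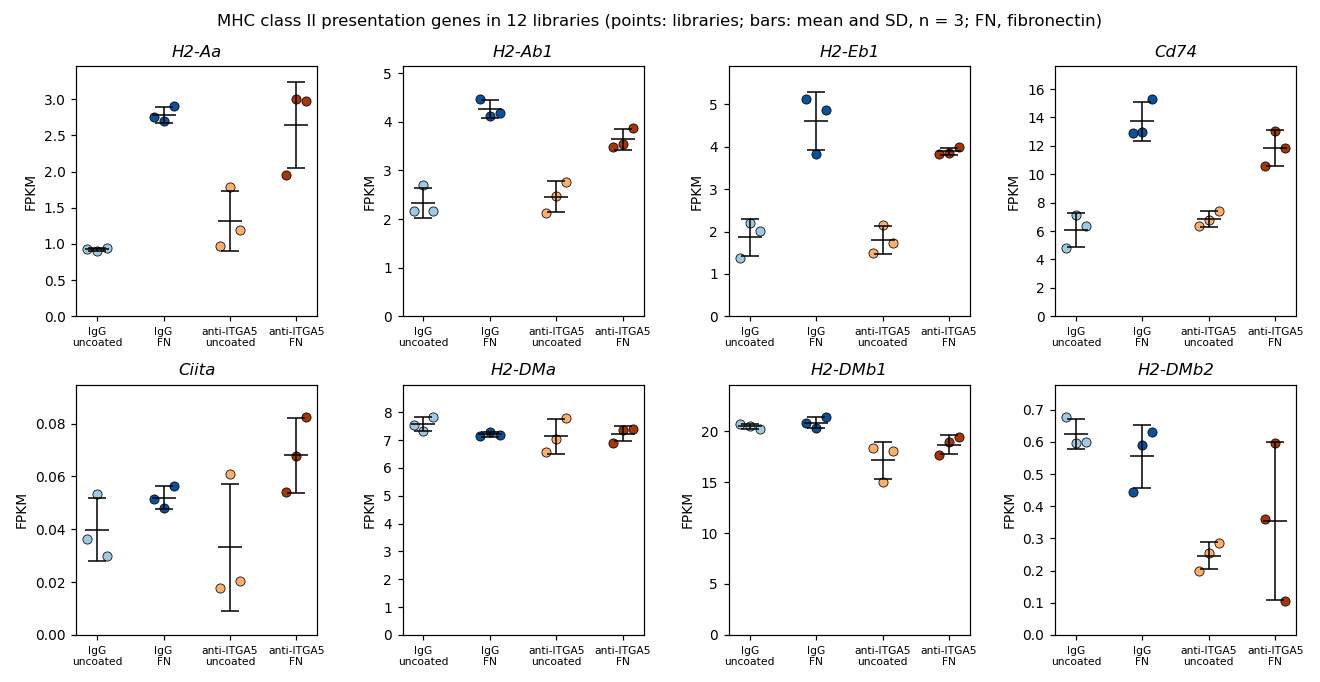
FPKM of each gene (y axis, from 0) in every library, with 1 panel per gene and the 4 groups on the x axis; points are libraries and bars are mean and SD of 3. On fibronectin the H2-Aa, H2-Ab1, H2-Eb1 and Cd74 libraries lie above the uncoated libraries of the same antibody, while H2-DMa and H2-DMb1 keep about the same level.

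On fibronectin the presenting chains and the invariant chain were higher in both antibodies, and H2-DMa and H2-DMb1 were not. In IgG, mean FPKM on fibronectin was 3.01 times that on uncoated dishes for H2-Aa, 2.48 times for H2-Eb1, 2.25 times for Cd74 and 1.82 times for H2-Ab1. In anti-ITGA5 the ratios were 2.01 for H2-Aa, 2.17 for H2-Eb1, 1.73 for Cd74 and 1.48 for H2-Ab1. In bulk RNA, more cells that express a gene and more transcripts per cell cannot be told apart.

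H2-Aa encodes the alpha chain of the I-A molecule. In IgG it stood at 0.926, 0.905 and 0.944 FPKM in the 3 uncoated libraries and at 2.75, 2.70 and 2.91 FPKM in the 3 fibronectin libraries. The groups were far apart and their libraries nearly level. In anti-ITGA5 it stood at 0.973, 1.78 and 1.20 FPKM on uncoated dishes and at 1.95, 3.01 and 2.97 FPKM on fibronectin. Here the groups did not overlap either, but the lowest fibronectin library came close to the highest uncoated one. The log2 fold change of counts in the edgeR fit was 1.58 ± 0.174 (SE) in IgG and 1.00 ± 0.275 in anti-ITGA5.

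H2-Ab1 encodes the beta chain that pairs with H2-Aa. In IgG it stood at 2.16, 2.69 and 2.16 FPKM on uncoated dishes and at 4.48, 4.12 and 4.18 FPKM on fibronectin. In anti-ITGA5 it stood at 2.12, 2.48 and 2.77 FPKM on uncoated dishes and at 3.49, 3.54 and 3.88 FPKM on fibronectin. Every fibronectin library was above every uncoated one, with a wider gap in IgG. The log2 fold change was 0.86 ± 0.142 in IgG and 0.55 ± 0.158 in anti-ITGA5.

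H2-Eb1 encodes the beta chain of the I-E molecule, whose alpha chain gene is disrupted in C57BL/6 mice; the remnant H2-Ea-ps had no count in any library. In IgG, H2-Eb1 stood at 1.37, 2.20 and 2.02 FPKM on uncoated dishes and at 5.14, 3.84 and 4.87 FPKM on fibronectin. In anti-ITGA5 it stood at 1.49, 2.15 and 1.73 FPKM on uncoated dishes and at 3.83, 3.86 and 3.98 FPKM on fibronectin. The groups did not overlap in either antibody. The log2 fold change was 1.29 ± 0.197 in IgG and 1.11 ± 0.212 in anti-ITGA5.

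Cd74, on chromosome 18, encodes the invariant chain, the chaperone of newly made class II. In IgG it stood at 4.80, 7.14 and 6.35 FPKM on uncoated dishes and at 12.9, 13.0 and 15.3 FPKM on fibronectin. In anti-ITGA5 it stood at 6.35, 6.75 and 7.43 FPKM on uncoated dishes and at 10.6, 13.1 and 11.9 FPKM on fibronectin. All fibronectin libraries were above all uncoated libraries, across both antibodies. The log2 fold change was 1.16 ± 0.125 in IgG and 0.77 ± 0.110 in anti-ITGA5, and at 117 to 401 counts per library these values rest on the most reads of the 4 genes that were higher.

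H2-DMa and H2-DMb1 encode the alpha chain and a beta chain of the peptide exchange factor. H2-DMa stood at 7.55, 7.34 and 7.82 FPKM on uncoated dishes and at 7.15, 7.31 and 7.16 FPKM on fibronectin in IgG. Those groups were just apart, but the difference was small: the log2 fold change was -0.08 ± 0.0920. In anti-ITGA5 H2-DMa stood at 6.56, 7.04 and 7.78 FPKM on uncoated dishes and at 6.91, 7.37 and 7.41 FPKM on fibronectin, groups that overlapped. H2-DMb1 stood at 20.7, 20.6 and 20.2 FPKM on uncoated dishes and at 20.8, 20.3 and 21.4 FPKM on fibronectin in IgG, with overlap. Its log2 fold change on fibronectin was 0.02 ± 0.0629 in IgG and 0.10 ± 0.0857 in anti-ITGA5.

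H2-DMb2 encodes another DM beta chain and was low, with 3 to 22 counts per library. In IgG it stood at 0.677, 0.595 and 0.60 FPKM on uncoated dishes and at 0.445, 0.591 and 0.631 FPKM on fibronectin, with a log2 fold change of -0.17 ± 0.297. In anti-ITGA5 it stood at 0.200, 0.255 and 0.285 FPKM on uncoated dishes and at 0.362, 0.597 and 0.106 FPKM on fibronectin. The lowest and the highest of these 6 values were both on fibronectin, and the gene had too few counts to enter the test in that comparison.

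Ciita, the coactivator, was near the limit of detection, with 3 to 13 counts per library. In IgG it stood at 0.0364, 0.0534 and 0.0299 FPKM on uncoated dishes and at 0.0513, 0.0482 and 0.0566 FPKM on fibronectin. In anti-ITGA5 it stood at 0.0179, 0.0609 and 0.0204 FPKM on uncoated dishes and at 0.0540, 0.0676 and 0.0825 FPKM on fibronectin. The groups overlapped in FPKM in both antibodies. With so few counts, neither a difference in Ciita nor its absence can be read from these values. In anti-ITGA5 Ciita passed the filter on 3 to 8 counts per uncoated library and 10 to 13 per fibronectin library. Its log2 fold change there was 1.08 ± 0.524 and went to 1.77 without anti-ITGA5 uncoated replicate 2.

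Of the 8 genes, 4 had fibronectin libraries entirely above the uncoated ones in IgG, against 8.80% of the 12925 genes tested, and 1 had them entirely below, against 6.61%. In anti-ITGA5, 4 were entirely above, against 5.79% of 12863 genes, and none entirely below, against 3.95%. In the edgeR fit, 7 of the 8 passed the filter in each antibody, Ciita not in IgG and H2-DMb2 not in anti-ITGA5. The median log2 fold change of those was 0.86 in IgG and 0.77 in anti-ITGA5, beside -0.000621 and -0.00215 over all genes tested. These counts and medians follow from how the genes were chosen, and nothing is read from them.

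**Figure D2:**
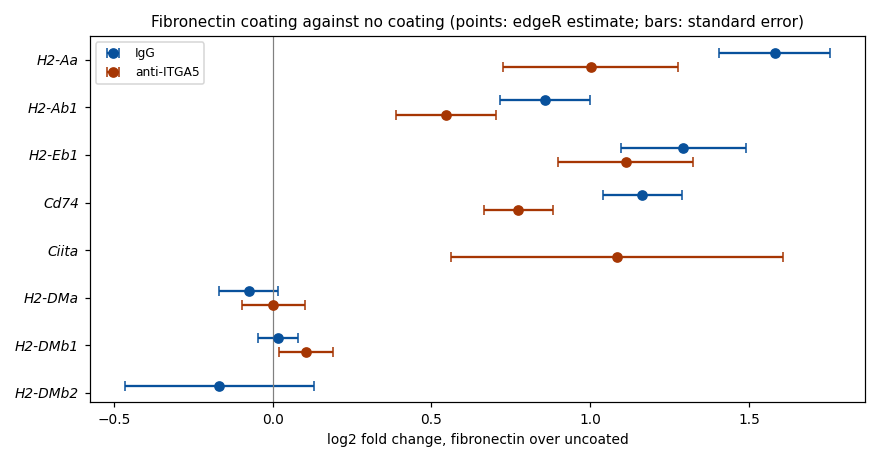
Log2 fold change of fibronectin over uncoated (x axis) for each gene, from the edgeR fit of each antibody's 6 libraries; points are estimates and bars standard errors, and a gene that did not pass the filter has no point. H2-Aa, H2-Ab1, H2-Eb1 and Cd74 lie between 0.55 and 1.58, and H2-DMa and H2-DMb1 between -0.08 and 0.10.

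The coating difference in anti-ITGA5 was smaller than that in IgG by 0.57 ± 0.320 on the log2 scale for H2-Aa, 0.39 ± 0.184 for Cd74, 0.32 ± 0.199 for H2-Ab1 and 0.18 ± 0.287 for H2-Eb1 (SE, all 12 libraries). These differences were at most 2.13 times their standard error and were not tested, because the same values chose the genes. With 1 library left out, the log2 difference ran from -0.74 to -0.32 for H2-Aa, from -0.52 to -0.25 for Cd74, from -0.43 to -0.21 for H2-Ab1 and from -0.32 to -0.0022 for H2-Eb1. For H2-DMa and H2-DMb1 the coating difference in anti-ITGA5 exceeded that in IgG by 0.08 ± 0.121 and 0.08 ± 0.101, less than 1 standard error. For the rare transcripts it exceeded that in IgG by 0.72 ± 0.664 (Ciita) and 0.69 ± 0.622 (H2-DMb2), with standard errors nearly as large as the values.

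The effect of the antibody was not part of the choice of genes and was tested with edgeR's quasi-likelihood test and Benjamini-Hochberg adjustment over all genes, although each antibody comparison shares its libraries with the coating comparisons. The presenting chains and Cd74 did not pass the test on either coating. The H2-DM beta chain genes H2-DMb1 and H2-DMb2 were called lower in anti-ITGA5 on uncoated dishes, and neither call was firm. There, 2 of the 7 genes tested were called lower and none higher, beside 9.79% of the 12924 genes tested called lower and 11.0% called higher. Of these 2, H2-DMb2 passed the filter only through its IgG libraries, where it was higher, so nothing is read from this count. On fibronectin none of the 7 was called by edgeR, DESeq2 or limma, and 1, H2-DMb1, had an unadjusted p under 0.05 in edgeR. Of all 12916 genes tested there, 13.2% were called lower and 14.4% higher, and 38.7% had an unadjusted p under 0.05.

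H2-DMb2 fell from 0.624 ± 0.0457 to 0.247 ± 0.0431 FPKM with anti-ITGA5 on uncoated dishes (SD, n = 3), with a log2 fold change of -1.32 ± 0.352 (edgeR adjusted p = 0.0233). These means rest on 18 to 20 counts per IgG library and 6 to 10 per anti-ITGA5 library. H2-DMb2 thus passed the filter in this comparison only through its IgG libraries, where it was higher, and nothing is read from its call. H2-DMb1 fell from 20.5 ± 0.231 to 17.2 ± 1.82 FPKM, with a log2 fold change of -0.25 ± 0.0786 (edgeR adjusted p = 0.0481). Neither gene's libraries overlapped, with 2 of the 8 genes entirely below and 1, H2-Aa, entirely above, beside 19.4% and 18.7% of all genes tested. Neither call was firm. Without any 1 of the 6 libraries the adjusted p of H2-DMb1 was 0.0657 to 0.152, and without any 1 but anti-ITGA5 uncoated replicate 2 that of H2-DMb2 was 0.0621 to 0.119. DESeq2 gave 0.134 for H2-DMb1 and 0.143 for H2-DMb2.

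On fibronectin H2-DMb1 stood at 20.8 ± 0.534 FPKM in IgG and at 18.7 ± 0.932 in anti-ITGA5, with a log2 fold change of -0.16 ± 0.0682 (edgeR adjusted p = 0.103). H2-DMb2 stood at 0.556 ± 0.0979 and 0.355 ± 0.245 FPKM, with -0.62 ± 0.444 (edgeR adjusted p = 0.334). That log2 fold change was -1.19 without anti-ITGA5 fibronectin replicate 2 and -0.22 without anti-ITGA5 fibronectin replicate 3. H2-DMb1 and H2-Ab1 were the 2 genes whose anti-ITGA5 libraries lay entirely below the IgG libraries on fibronectin and none lay entirely above, beside 20.6% and 21.7% of all genes tested.

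Among the presenting chains on uncoated dishes, H2-Aa stood at 0.925 ± 0.0193 FPKM in IgG and 1.32 ± 0.418 in anti-ITGA5, a log2 fold change of 0.50 ± 0.292 (edgeR adjusted p = 0.261). Its libraries did not overlap, but the lowest anti-ITGA5 value, 0.973 FPKM, was just above the highest IgG value, 0.944 FPKM. The log2 fold changes of Cd74, H2-Ab1, H2-Eb1 and H2-DMa were 0.17 ± 0.146, 0.08 ± 0.195, -0.06 ± 0.283 and -0.08 ± 0.0972, with edgeR adjusted p of 0.452 to 0.907. On fibronectin those of H2-Eb1, H2-Ab1, Cd74 and H2-Aa were -0.24 ± 0.152, -0.23 ± 0.122, -0.22 ± 0.101 and -0.08 ± 0.173, with edgeR adjusted p of 0.137 to 0.766. Ciita, not past the filter, stood at 0.0399 ± 0.0121 and 0.0331 ± 0.0241 FPKM on uncoated dishes and at 0.0520 ± 0.00424 and 0.0680 ± 0.0142 FPKM on fibronectin, in IgG and anti-ITGA5.

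**Figure D3:**
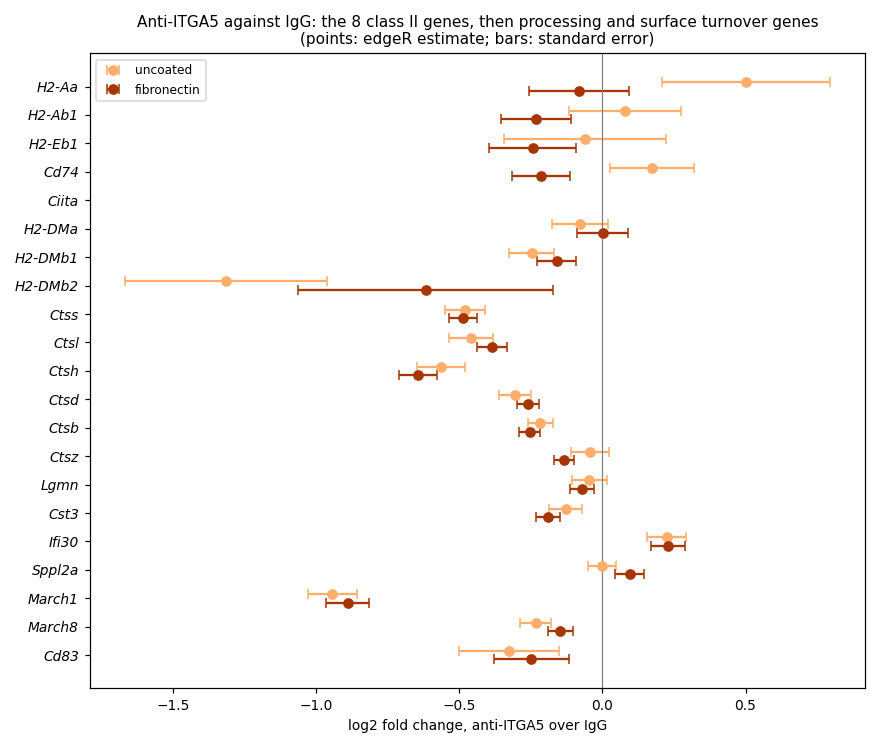
Log2 fold change of anti-ITGA5 over IgG (x axis) on each coating for the 8 class II genes, for 10 genes of invariant chain and peptide processing (Ctss to Sppl2a) and for 3 of class II surface turnover (March1 to Cd83); points are edgeR estimates, bars are standard errors, and Ciita was not tested. The cathepsins and March1 lie below 0 on both coatings, March1 at -0.94 and -0.89, while the presenting chains lie between -0.06 and 0.50 on uncoated dishes and between -0.24 and -0.08 on fibronectin.

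Other genes of the pathway were taken from 6 lists of 58 symbols, of which 55 were in the table. The lists were chosen with earlier results of these data known. Their counts beside the shares of all genes are therefore a description, here and below. With anti-ITGA5 on uncoated dishes, 16 of the 43 genes tested were lower and 3 higher (edgeR), beside 9.79% and 11.0% of all genes tested. On fibronectin 15 were lower and 3 higher, beside 13.2% and 14.4%. On fibronectin in IgG 1 of 42 was higher and none lower, beside 0.325% and 0.124% of all genes tested. On fibronectin in anti-ITGA5 none of 44 was called, as was none of all genes in that comparison, higher or lower (0%). For the difference between the coating effects none of the 44 was called, beside 0.0223% of all 13455 genes. The coating genes past an unadjusted p of 0.05 were 7 of 42 in IgG and 3 of 44 in anti-ITGA5, beside 9.79% and 3.58% of all genes. Without IgG uncoated replicate 1, the 16 genes lower on uncoated dishes became 9. The 3 higher became 1 there without IgG uncoated replicate 1 or 2 or anti-ITGA5 uncoated replicate 1 or 3, and 1 on fibronectin without IgG fibronectin replicate 1 or 3.

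Of the 10 genes of invariant chain and peptide processing tested, 5 were lower with the antibody and 1 higher on uncoated dishes, beside 9.79% and 11.0% of all genes, and 7 were lower and 1 higher on fibronectin, beside 13.2% and 14.4%. The 5 lower on both coatings were cathepsins, and Lgmn and Sppl2a were called on neither. Ctss encodes cathepsin S, the protease of the last steps of invariant chain cleavage. It stood at 945 ± 16.2 FPKM in IgG and 675 ± 74.0 in anti-ITGA5 on uncoated dishes, a log2 fold change of -0.48 ± 0.0698 (edgeR adjusted p = 0.000855), and its log2 fold change on fibronectin was -0.49 ± 0.0481 (edgeR adjusted p = 1.71e-05). The lysosomal proteases Ctsh, Ctsl, Ctsd and Ctsb also fell on both coatings. The log2 fold changes on uncoated dishes were -0.56, -0.46, -0.30 and -0.22, and on fibronectin they were -0.64, -0.39, -0.26 and -0.25. On uncoated dishes limma did not call Ctsd or Ctsb at either pseudocount, with adjusted p up to 0.0786 and 0.140. Ctsz and Cst3, which encodes the inhibitor cystatin C, fell on fibronectin, by 0.13 and 0.19 on the log2 scale. Ifi30, a lysosomal thiol reductase, rose by 0.22 on uncoated dishes and 0.23 on fibronectin. That call was lost on uncoated dishes without IgG uncoated replicate 1 or 2 or anti-ITGA5 uncoated replicate 1 or 3, and on fibronectin without IgG fibronectin replicate 1 or 3 or anti-ITGA5 fibronectin replicate 2. The call of Ctsz was lost without replicate 1 of either fibronectin group.

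With the coating 1 of these 10 genes was called higher in IgG by edgeR, beside 0.325% of all genes. Of the 10, 5 had an unadjusted p under 0.05, beside 9.79% of all genes, and DESeq2 called 4 higher, beside 0.390% of the genes it tested. In IgG on fibronectin Ctsz rose, from 556 ± 19.3 to 643 ± 8.46 FPKM, with a log2 fold change of 0.20 ± 0.0355 (edgeR adjusted p = 0.0178). That call was lost without IgG uncoated replicate 1 or 2 or IgG fibronectin replicate 1, and 3 genes of the 6 lists were called without IgG fibronectin replicate 2. The log2 fold changes of Ctss, Cst3, Ctsl and Ctsh were 0.15 ± 0.0353, 0.14 ± 0.0356, 0.17 ± 0.0514 and 0.19 ± 0.0686, with edgeR adjusted p of 0.0940, 0.116, 0.208 and 0.351. In anti-ITGA5 none of the 10 was called by edgeR as fitted here, DESeq2 or limma, and 1, Ctsl, had an unadjusted p under 0.05 in edgeR, with 0.24 ± 0.0780, beside 3.58% of all genes. Without the filter edgeR called Ctsl higher (adjusted p = 0.0374).

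March1 encodes the ubiquitin ligase that sends surface class II to lysosomes. With anti-ITGA5 it fell from 3.16 ± 0.171 to 1.64 ± 0.0756 FPKM on uncoated dishes, with a log2 fold change of -0.94 ± 0.0857 (edgeR adjusted p = 4.70e-05). On fibronectin it fell from 3.61 ± 0.110 to 1.95 ± 0.0671 FPKM, with -0.89 ± 0.0755 (edgeR adjusted p = 6.61e-06). It remained called in every alternative of both comparisons. March8, a related ligase, fell by 0.23 and 0.15 on the log2 scale. Its call was lost on uncoated dishes without IgG uncoated replicate 1 or 2, and on fibronectin without any 1 library but IgG fibronectin replicate 3. Cd83, which protects class II from March1 in dendritic cells, did not pass the test, with -0.33 ± 0.174 and -0.25 ± 0.130.

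Of the 9 genes of the complex that recruits CIITA, 2 were higher and 1 lower with the antibody on both coatings. Of all genes tested, 11.0% were higher and 9.79% lower on uncoated dishes and 14.4% and 13.2% on fibronectin, so these counts are close to the background. All 3 encode subunits of NF-Y, the factor that binds the CCAAT letters. Nfyb rose by 0.42 ± 0.0730 on uncoated dishes and 0.36 ± 0.0794 on fibronectin, Nfyc rose by 0.24 ± 0.0751 and 0.23 ± 0.0760, and Nfya fell by 0.26 ± 0.0538 and 0.28 ± 0.0428 on the log2 scale. The call of Nfyc was lost without any 1 library but anti-ITGA5 uncoated replicate 2, or on fibronectin anti-ITGA5 fibronectin replicate 3, and that of Nfya on uncoated dishes without IgG uncoated replicate 1. The RFX subunits Rfx5, Rfxap and Rfxank, whose loss abolishes class II expression, were not called in any comparison.

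Ifng, the interferon gamma gene, had no count in any library. Of 11 genes of interferon gamma signalling and Ciita control, 4 were lower and none higher with the antibody on each coating, beside 9.79% of all genes lower on uncoated dishes and 13.2% on fibronectin. Irf8, a transcription factor of the myeloid lineage, fell by 0.34 ± 0.0608 on uncoated dishes and 0.30 ± 0.0572 on fibronectin. The receptor gene Ifngr1 fell by 0.23 ± 0.0610 and 0.26 ± 0.0608, a call lost on uncoated dishes without any IgG uncoated library or anti-ITGA5 uncoated replicate 3. The kinase genes Jak1 and Jak2 were lower on uncoated dishes, each losing the call without any 1 library but anti-ITGA5 uncoated replicate 2. Spi1 and Prdm1 were lower on fibronectin, and both lost the call without IgG fibronectin replicate 1 or 3 or anti-ITGA5 fibronectin replicate 2, and Prdm1 also without anti-ITGA5 fibronectin replicate 1. With the coating none was called in either antibody.

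Of the interferon gamma response genes, 4 of the 9 tested were lower with the antibody on uncoated dishes, beside 9.79% of all genes. On fibronectin 1 was lower, no more than the 13.2% of all genes. Irgm1, a GTPase of cell-autonomous immunity, fell from 5.76 ± 0.555 to 3.60 ± 0.423 FPKM on uncoated dishes, with a log2 fold change of -0.67 ± 0.0985 (edgeR adjusted p = 0.000966). Cd274, which encodes PD-L1, fell by 0.55 ± 0.115 on uncoated dishes and 0.49 ± 0.167 on fibronectin, the latter lost with DESeq2, total counts or limma at either pseudocount (adjusted p up to 0.207), and without IgG fibronectin replicate 2 or 3 or anti-ITGA5 fibronectin replicate 1 or 2. Igtp and Irgm2 were also lower on uncoated dishes, the call of Igtp lost without any IgG uncoated library or anti-ITGA5 uncoated replicate 1 and that of Irgm2 without IgG uncoated replicate 1 or 3 or anti-ITGA5 uncoated replicate 3. With the coating, 0 of 9 in IgG and 0 of 10 in anti-ITGA5 were called by edgeR as fitted here, by DESeq2 or by limma, and none had an unadjusted p under 0.05 in edgeR, beside 9.79% and 3.58% of all genes. Irgm1 was called higher in anti-ITGA5 by edgeR without the filter (adjusted p = 0.0228).

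Of the other class II chain genes, H2-Oa and H2-Eb2 had at most 3 counts in any library. H2-Ob, the beta chain of the DM inhibitor H2-DO, stood at 0.211 ± 0.0973 and 0.346 ± 0.0494 FPKM on uncoated dishes in IgG and anti-ITGA5 and was not called. The stretch of chromosome 17 that holds 6 of the 8 genes has 6 other protein-coding genes, among them those of the peptide transporter (Tap1, Tap2) and the immunoproteasome (Psmb8, Psmb9), which serve MHC class I. None of them was called in any comparison by edgeR as fitted here. With a library left out, Psmb8 was called higher with the antibody on uncoated dishes without anti-ITGA5 uncoated replicate 2 and on fibronectin without anti-ITGA5 fibronectin replicate 1, and H2-Ob on fibronectin without IgG fibronectin replicate 2 (adjusted p of 0.0116, 0.0423 and 0.0318). The coating log2 fold changes of Tap1, Tap2, Psmb8 and Psmb9 were 0.01 to 0.15 in IgG and 0.14 to 0.23 in anti-ITGA5, whereas that of H2-Ab1, from the same stretch, was 0.86 and 0.55.

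Dendritic cells and B cells hold class II at high levels, so their markers were measured beside the coating result. Of 12 dendritic cell markers, Flt3, Ccr7 and Siglech had at most 3 counts in every library, and Zbtb46, which marks conventional dendritic cells, had 5 to 16. Batf3 and Itgae were present, with 31 to 87 and 16 to 50 counts per library. Their mean FPKM in IgG were 1.52 and 0.407 on uncoated dishes and 1.83 and 0.306 on fibronectin. The summed FPKM of the 12 was 2.66 to 4.10 in IgG uncoated and 3.46 to 4.91 in IgG fibronectin, and 3.78 to 5.64 and 3.86 to 5.08 in anti-ITGA5. Itgax, which encodes CD11c and is also made by macrophages, stood at 0.978 ± 0.213 and 1.59 ± 0.136 FPKM in IgG, uncoated and on fibronectin, with a log2 fold change of 0.70 ± 0.153 (edgeR adjusted p = 0.0598). With anti-ITGA5 it rose by 0.94 ± 0.219 on uncoated dishes and 0.44 ± 0.133 on fibronectin, calls lost without IgG uncoated replicate 1 or 3, and without IgG fibronectin replicate 1 or 3 or anti-ITGA5 fibronectin replicate 2. Among 9 B cell markers, Ms4a1, Pax5, Ebf1 and Fcer2a had at most 3 counts in every library. Cd79b, Ighm and Cd22 were present, with 42 to 113, 44 to 142 and 58 to 111 counts per library. Their mean FPKM in IgG were 3.54, 2.63 and 1.01 on uncoated dishes and 3.58, 2.44 and 0.934 on fibronectin. The summed FPKM of the 9 was 6.76 to 8.20 in IgG uncoated and 6.47 to 7.86 in IgG fibronectin, and 4.54 to 5.81 and 4.45 to 5.77 in anti-ITGA5. No marker of macrophages, dendritic cells, B cells, T and NK cells, neutrophils or fibroblasts was called with the coating by edgeR as fitted here. Among the alternatives, Itgax was called higher in IgG without the filter and without IgG uncoated replicate 2, at an adjusted p as low as 0.000289, and Fcgr1, an Fc receptor gene, without the filter in anti-ITGA5. The log2 fold change of Mpo, a neutrophil granule gene, with the coating in IgG was 1.41 ± 0.450 (edgeR adjusted p = 0.247). The part of cells that express Itgax, Mpo or the other markers named above in the coating result was not tested.

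With anti-ITGA5, 4 of the 8 macrophage markers were lower and 1 higher on each coating: Lyz2, Itgam, Mertk and Cd68 fell and Cd14 rose. Of all genes, 9.79% were lower and 11.0% higher on uncoated dishes and 13.2% and 14.4% on fibronectin. The log2 fold change of Lyz2, the lysozyme gene, was -0.51 on uncoated dishes and -0.46 on fibronectin, and that of Itgam, which encodes CD11b, was -0.47 and -0.31. The call of Cd68 was lost without any IgG uncoated library, and that of Cd14 on fibronectin without IgG fibronectin replicate 1 or 3 or anti-ITGA5 fibronectin replicate 1 or 2. The B cell receptor gene Cd79b fell by 0.72 on fibronectin, a call lost without IgG fibronectin replicate 1, and the neutrophil gene Mpo by 0.94, lost without any 1 library. These marker changes stand beside the lower cathepsins and March1 in the same libraries, and their part in those results was not tested.

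Among the other genes whose levels followed the class II genes most closely were Wdr45, Mvp, C3 and Ahrr. Their log2 CPM had Pearson r of 0.899, 0.882, 0.875 and 0.867 with the mean scaled profile of the 6 class II genes that had at least 10 counts in every library, over the 12 libraries and out of 11680 genes screened. Libraries of 1 group share coating and antibody, and such values arise by search over many genes. C3, the central complement component, had mean FPKM of 1.86 in IgG uncoated, 1.16 in anti-ITGA5 uncoated, 2.84 in IgG fibronectin and 2.37 in anti-ITGA5 fibronectin.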

How the data were processed

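The authors aligned paired-end reads of oligo(dT)-selected RNA to the mouse genome (GRCm38.p6), and the submitters' processing notes name TopHat2 2.0.9, HTSeq 0.6.1 and Cufflinks 2.1.1. They deposited 1 table of counts per Ensembl gene, without normalization, and 1 table of FPKM, which the authors made by dividing each count by gene length and by 1 total per library. The Ensembl release and the strand setting are not given in the sources used here. Groups were taken from the labels, and no column was left out.

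The counts were tested with edgeR 4.0.16 in R 4.3.3 (filterByExpr with a minimum count of 10 and a minimum total of 15, TMM, quasi-likelihood test, Benjamini-Hochberg adjustment over all genes tested, call at 0.05 or less). Each comparison used its own 6 libraries, and the difference between the coating effects used all 12. The standard error was the log2 fold change divided by the square root of F. FPKM are given as mean and SD of 3 libraries. Fits were tested on simulated data.

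The members and lists were chosen with earlier results of these data known. The 8 genes were followed in every library. Of each list, the counts called and at most 4 called genes with the largest change, plus genes whose role is stated, were named, and further called genes were chosen after seeing their values. A few genes of the lists and of the likeness search are not reported here. Alternatives were DESeq2 1.42.0, TMM replaced by its size factors or by total counts, no filter beyond 1 count, 1 fit over all 12 libraries, a replicate block, limma 3.58.1 on log2(FPKM + 1) or log2(FPKM + 0.1) for genes with a mean of at least 0.5 FPKM, a log2 fold change of at least 0.5, and each library left out. Depth was 12954342 to 22075432 counts per library, and genes under about 20 counts per library, Ciita and H2-DMb2, are the least precise. Promoter windows are from RefSeq, and transcripts from GENCODE M21 on the same build.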

Additional observations from a re-analysis of the deposited data

How the results depend on the processing

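The 4 class II genes that were higher on fibronectin kept their direction in both antibodies under every alternative run. The count of H2-DM genes lower with anti-ITGA5 on uncoated dishes, 2, was 0 with DESeq2 and with limma at either pseudocount, 1 with total counts, without the filter or with a log2 fold change of at least 0.5, and 0 to 1 with a library left out. The 3 pathway genes higher on uncoated dishes were 1 with DESeq2, without the filter and with limma at either pseudocount, 0 with the fold threshold, and 1 to 4 with a library left out. The 16 lower were 4 with the fold threshold and 9 to 19 with a library left out. On fibronectin the 3 higher were 0 with the fold threshold and 1 to 4 with a library left out, and the 15 lower were 3 with the fold threshold. With the coating in IgG, the 1 pathway gene higher was 4 with DESeq2, 5 without the filter, 0 with limma at either pseudocount, with the fold threshold or with all 12 libraries in one fit, and 0 to 3 with a library left out. In anti-ITGA5, 3 were higher without the filter. The cause of these shifts was not tested. The median log2 fold change of the class II genes went to 0.66 in IgG and 0.54 in anti-ITGA5 with limma on log2(FPKM + 1), where the pseudocount shrinks low genes. In anti-ITGA5 that fit also left out Ciita, under its threshold of mean FPKM, so the medians compared there are over different genes. For the difference between the coating effects the median, -0.05, was -0.24 with limma on log2(FPKM + 0.1), a fit that left out Ciita and H2-DMb2. With a library left out it was -0.128 to 0.038, the highest without IgG uncoated replicate 1. Some values near 0, none of them called, changed sign with a library left out. For the antibody on uncoated dishes the log2 fold change ran from -0.021 to 0.1945 for H2-Ab1, from -0.2387 to 0.0759 for H2-Eb1 and from -0.0962 to 0.0258 for Ctsz. On fibronectin it ran from -0.1921 to 0.1038 for H2-Aa and from -0.016 to 0.0357 for H2-DMa, which was -0.0009 with all 12 libraries in one fit. Beside the fold threshold, which ends the call of every gene that changed by less than 0.5, and left-out libraries, settings that ended calls of pathway genes and markers with the antibody did so on uncoated dishes for Ctsb, Ctsd, Cd68, Jak1, Jak2, Ifngr1, Ifi30, Nfyc, Irgm2, Igtp and Itgax, and on fibronectin for Cd274, Ctsz, Spi1, Prdm1, Cd14, March8, Nfyc, Itgax and Mpo.

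Replicate numbers are shared by the groups, but no source says that they mark a common mouse or day. Deviations of same-numbered libraries had r of 0.00608 to 0.235, and in no comparison did every pair exceed 0.1. Each library correlated best with its own number in 3 of the 4 comparisons, a hint from the data only. With the replicate block, 6 pathway genes, Cd274 among them (adjusted p = 0.0351), were higher with the coating in IgG in place of 1, the markers Itgax, Fcgr1 and Mpo were called higher and Mertk lower in that comparison, and Psmb8 was called higher (adjusted p = 0.0351). Over all genes that comparison then gave 283 higher and 133 lower in place of 42 and 16, and the coating in anti-ITGA5 gave 0 higher and 2 lower in place of none. The counts of class II and pathway genes in the other comparisons stayed within 1.5 times. Depth limits Ciita and H2-DMb2, at 3 to 22 counts per library, whose log2 fold changes between 2 groups had standard errors of 0.297 to 0.524.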
